A study of Mus musculus with 14 samples.

Results

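Transcripts of 10 genes that build the apical and basolateral polarity complexes of epithelial cells were followed in ductal cells and hepatocytes sorted from injured mouse livers. The genes were taken by name, out of 20377 symbols in the deposited table. They were Crb3, Mpp5 and Inadl of the Crumbs complex, Pard3, Pard6b, Prkci and Prkcz of the Par complex, and Llgl1, Llgl2 and Scrib of the Scribble module. All 10 were measured, and all 10 passed the filter on low values (RPKM, reads scaled by transcript length and library size, of 1 or more in 4 or more of the 14 libraries).

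The mice were C57BL/6 adults made chimeric so that mature hepatocytes carried a red fluorescent protein, mTomato. All 3 groups came from livers treated with 0.1% DDC, a porphyrinogenic compound that provokes bile duct injury, for 5 to 8 weeks, and no untreated liver is among the samples. Hepatocyte-derived ductal cells (5 libraries, donor cells per the labels, which give their cell type as oval cell) were mTomato-positive. Cholangiocyte-derived ductal cells (5 libraries, host cells per the labels) were mTomato-negative, and both ductal groups carried the MIC1-1C3 surface antigen, had low side scatter and lacked CD11b, CD26, CD31 and CD45. Hepatocytes gave 4 libraries. The negative gate takes every ductal cell without the marker, and the share of hepatocytes left unmarked is not given in the sources used here. Libraries are named by the number in their titles. Nothing states that different numbers are different mice, so the p-values reflect only how these libraries spread, and that spread can be technical.

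An epithelial cell keeps an apical face apart from its basal and lateral faces, and a belt of junctions marks the border. The Crumbs and Par complexes specify the apical side and the junctional belt, the Scribble module specifies the basolateral side, and the sides exclude each other, in part because atypical protein kinase C of the Par complex phosphorylates the Lgl proteins and removes them from the apical membrane. Cholangiocytes line a duct with a single apical face, whereas hepatocytes form narrow apical canaliculi between neighbouring cells.

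Promoter windows were read for the members as a description. Most members moved in the same direction between the groups on the deposited scale, but against hepatocytes so did most symbols. Of all tested symbols, 66.2% and 67.1% were higher in hepatocyte-derived and cholangiocyte-derived cells than in hepatocytes. No link between a motif and these levels was tested. RefSeq windows (build GRCm38.p6, from 250 bases before to 50 bases after a transcript start) were found for 7 of the 10 members, with 13 windows in all. Mpp5, Llgl2 and Scrib had none in the table used, and Inadl is listed there under the symbol Patj. Windows of 4 members are shown up to the start, 5′ to 3′ on the plus strand. Crb3 and Pard6b carry the E-box CACCTG, the letters bound by the repressors ZEB1 and Snail, for which Crb3 is a known target in carcinoma cells. Prkci and Llgl1 are members without it. Capitals mark CACCTG, or CAGGTG on the other strand, and GGAATG, or CATTCC on the other strand, the letters bound by TEAD factors.
Crb3, chr17:57061951-57062200: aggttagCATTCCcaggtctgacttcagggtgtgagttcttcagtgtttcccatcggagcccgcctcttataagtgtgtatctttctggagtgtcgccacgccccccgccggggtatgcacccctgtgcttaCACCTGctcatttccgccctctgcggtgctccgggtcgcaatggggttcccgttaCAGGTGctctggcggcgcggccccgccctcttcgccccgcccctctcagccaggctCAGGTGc
Pard6b, chr2:168080754-168081003: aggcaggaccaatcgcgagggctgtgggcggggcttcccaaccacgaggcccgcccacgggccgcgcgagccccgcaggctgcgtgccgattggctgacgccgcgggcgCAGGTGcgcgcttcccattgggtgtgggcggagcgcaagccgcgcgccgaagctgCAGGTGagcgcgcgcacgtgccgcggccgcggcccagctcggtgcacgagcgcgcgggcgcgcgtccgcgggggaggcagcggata
Prkci, chr3:30995521-30995770: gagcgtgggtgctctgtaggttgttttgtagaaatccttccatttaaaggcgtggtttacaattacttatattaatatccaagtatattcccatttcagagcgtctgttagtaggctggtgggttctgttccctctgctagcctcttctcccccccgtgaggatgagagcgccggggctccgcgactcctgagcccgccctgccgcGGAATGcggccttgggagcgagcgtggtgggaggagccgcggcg
Llgl1, chr11:60699450-60699699: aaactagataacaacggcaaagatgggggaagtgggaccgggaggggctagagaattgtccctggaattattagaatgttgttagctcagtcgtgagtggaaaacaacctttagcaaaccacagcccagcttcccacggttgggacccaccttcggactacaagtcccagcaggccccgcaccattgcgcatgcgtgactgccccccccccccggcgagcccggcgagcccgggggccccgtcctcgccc

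Over full windows and both strands, CACCTG was in 7 of the 13 member windows, which belong to 5 members (Crb3, Inadl, Pard3, Pard6b and Prkcz), and in 20.2% of all 32851 windows of that length. The 2 Crb3 windows overlap and hold the same E-boxes, 4 in each. GGAATG was in 2 member windows, of Crb3 and Prkci, against 14.7% of all windows. AACCGGTT, a sequence bound by Grainyhead-like factors, was in none of the 13 and in 0.146% of all windows. No 2 matches overlapped in the windows shown. Member windows held 4 to 47 CpG dinucleotides, and the median over all windows was 7. The shares thus come from windows of differing composition, and their difference was not tested. A match describes letters only.

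The sorted groups carried the markers of their labels. The summed level of 8 biliary markers was 16537 to 19308 RPKM in hepatocyte-derived ductal cells, 20340 to 21740.3 in cholangiocyte-derived ductal cells and 618 to 1419.6 in hepatocytes. Most of that sum is Spp1, and the keratin Krt19 averaged 42.5, 658 and 2.86 RPKM in the same order. The sum of 9 hepatocyte markers was 47274 to 65565 RPKM in hepatocytes, 5512 to 10649 in hepatocyte-derived and 3249 to 4609.5 in cholangiocyte-derived ductal cells. Hepatocyte library 118 stood apart, with 1399 RPKM summed over 12 macrophage markers against 30.2 to 40.5 in the other hepatocyte libraries, 292 over 10 endothelial markers against 8.38 to 22.8, and 136 over 8 stellate cell markers against 4.74 to 6.72. Cholangiocyte-derived libraries 118 and 220 had stellate sums of 297 and 362 RPKM against 31.5 to 65.5 in the rest of that group. The summed lymphocyte markers were at most 2.68 RPKM in any library. The depth, estimated from the steps between low values, was 20000000 to 28000000 reads per library.

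**Figure D1:**
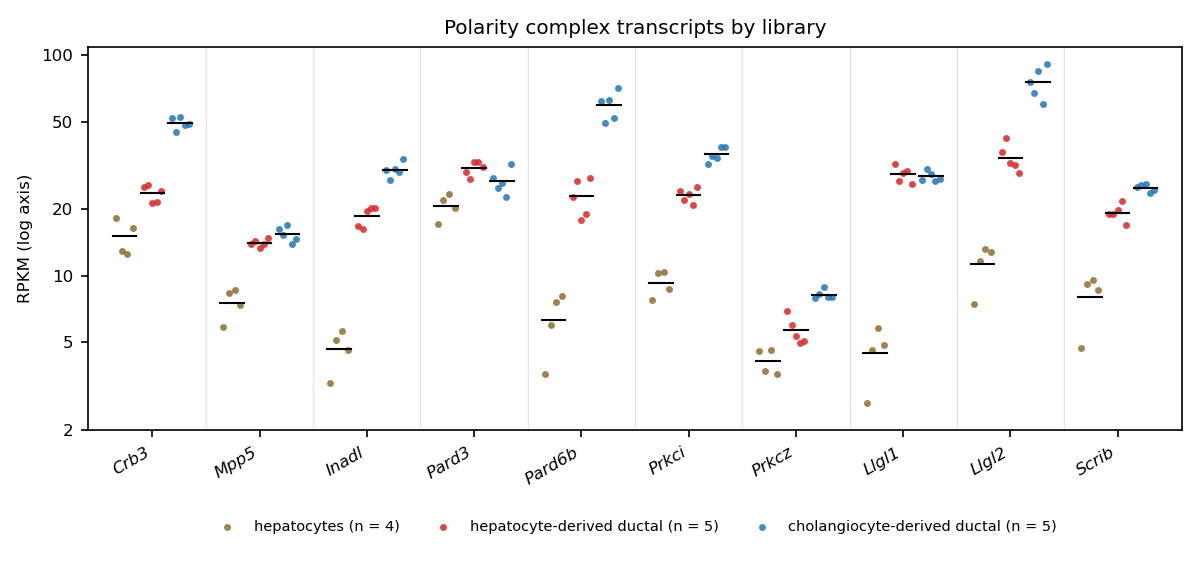
RPKM of the 10 polarity genes (log axis) in each library, with a black line at each group mean: hepatocytes (brown, n = 4), hepatocyte-derived ductal cells (red, n = 5) and cholangiocyte-derived ductal cells (blue, n = 5). On the deposited scale Crb3, Inadl, Pard6b, Prkci, Prkcz, Llgl2 and Scrib form 3 separate steps, while Mpp5, Pard3 and Llgl1 overlap between the ductal groups. After rescaling by median ratios or quantiles, Crb3, Mpp5, Pard3 and Prkcz were no longer called higher in hepatocyte-derived cells than in hepatocytes. Prkcz was then called lower.

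On the deposited scale, transcripts of all 10 members exceeded their hepatocyte level in the hepatocyte-derived ductal cells, by 1.37-fold (Prkcz) to 6.41-fold (Llgl1) in mean RPKM. In cholangiocyte-derived ductal cells they were higher than in hepatocytes by 1.29-fold (Pard3) to 9.39-fold (Pard6b). Both lowest values depend on that scale. With each library rescaled by its median ratio to the others, Prkcz in hepatocyte-derived cells was at -0.29 log2 units. Pard3 in cholangiocyte-derived cells was then at -0.46, and both were called lower than in hepatocytes. Between the ductal groups, 6 members were lower in the hepatocyte-derived cells (Crb3, Inadl, Pard6b, Prkci, Prkcz and Llgl2), and none was higher. The other 4 (Mpp5, Pard3, Llgl1 and Scrib) did not pass the test there.

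These counts stand against a table in which most genes moved. With limma over 12638 tested symbols and a Benjamini-Hochberg adjusted p under 0.05, 66.2% of all symbols were higher in the hepatocyte-derived cells than in hepatocytes and 14.8% were lower, 81% in either direction. The median log2 fold change was 0.67 over all symbols and 1.23 over the members. For cholangiocyte-derived ductal cells against hepatocytes, 67.1% of all symbols were higher and 17.4% lower (84.4% in either direction), with a median of 0.76 over all and 1.75 over the members. For hepatocyte-derived against cholangiocyte-derived ductal cells, 15.1% of all symbols were higher and 21% lower (36.2% in either direction), with medians of -0.03 and -0.54. The first 2 comparisons share the hepatocyte libraries.

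Library values of the members rarely overlapped. They did not overlap between hepatocyte-derived ductal cells and hepatocytes for any of the 10 members, against 59.9% of all symbols apart in that direction. For cholangiocyte-derived ductal cells against hepatocytes they did not overlap for 9 members (60.5% of all symbols apart in that direction), and between the ductal groups for 7, all lower in the hepatocyte-derived cells (20.4%). In bulk RNA, more cells that carry a transcript and more RNA per cell cannot be told apart.

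Directions against hepatocytes depend in part on how libraries are scaled. When each library was rescaled by its median ratio to the others, the median log2 change over all symbols became 0.01 and 0.05 for the hepatocyte-derived and cholangiocyte-derived cells against hepatocytes. The split of calls moved from 81.7% to 50.3% higher and from 79.4% to 51.2% higher. Over this rescaling and quantile normalization, as few as 4596 and 4891 symbols were called higher than in hepatocytes. As many as 4613 and 4821 were called lower, of 12540 (median ratios) or 12638 (quantiles) tested. Inadl, Pard6b, Prkci, Llgl1, Llgl2 and Scrib were still called higher in both ductal groups after this rescaling and after quantile normalization, and so was Crb3 in the cholangiocyte-derived cells. In hepatocyte-derived cells Mpp5 was then at 0.10 and 0.03 log2 units above hepatocytes and Crb3 at -0.14 and 0.05, and none of these was called. Pard3 and Prkcz changed sign or lost the call in both ductal groups, as given with each gene. The ductal groups differed little in scale, and the 6 members lower in hepatocyte-derived cells were called lower under both rescalings.

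**Figure D2:**
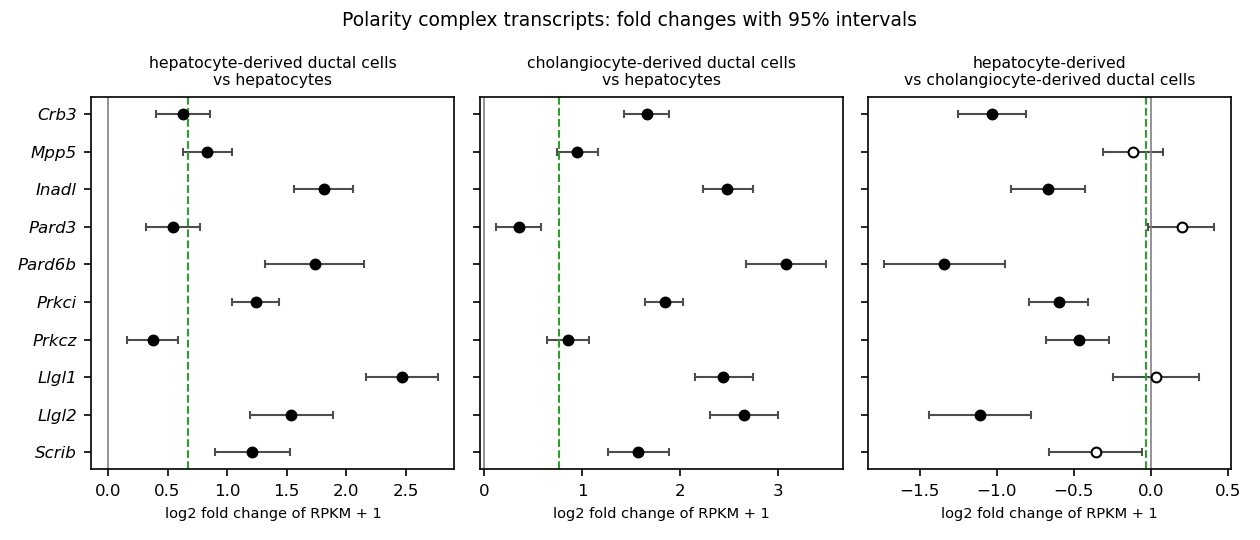
Log2 fold change of RPKM + 1 with its 95% interval for each polarity gene in the 3 comparisons, filled where the adjusted p was under 0.05 and open where it was not. The green dashed line is the median of all 12638 tested symbols (0.67, 0.76 and -0.03), and in the right panel Mpp5, Pard3, Llgl1 and Scrib are open.

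Crb3 encodes the short transmembrane Crumbs protein of most epithelia, whose tail anchors the complex at the apical membrane (NM_177638, mm9 chr17:57201700-57205337, plus strand). Hepatocytes had 18.3, 13.0, 12.6 and 16.5 RPKM in libraries 118, 225, 248 and 611. Hepatocyte-derived ductal cells had 25.4, 25.9, 21.3, 21.5 and 24.3 in libraries 219, 220, 225, 248 and 611, and cholangiocyte-derived ductal cells had 51.9, 44.6, 52.7, 48.3 and 48.9 in libraries 118, 219, 220, 225 and 611. The 3 groups did not overlap, and the hepatocyte-derived cells lay closer to hepatocytes than to the other ductal cells. Their mean was 23.7 ± 2.14 RPKM (SD, n = 5) against 49.3 ± 3.2 (n = 5) in cholangiocyte-derived cells, a log2 difference of -1.03 (SE 0.1, limma adjusted p = 1.83e-06). Against hepatocytes (15.1 ± 2.8, n = 4) the log2 changes were 0.63 (SE 0.11, adjusted p = 7.90e-05) and 1.66 (SE 0.11, adjusted p = 2.27e-09). The change in hepatocyte-derived cells rests on the scaling: by median ratios it was -0.14 and by quantiles 0.05, neither called.

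Mpp5, the scaffold PALS1 that links Crumbs to its partners (NM_019579, chr12:79849934-79941700, plus strand), overlapped between the ductal groups. It ranged from 5.85 to 8.66 RPKM in hepatocytes, from 13.4 to 14.8 in hepatocyte-derived cells and from 13.99 to 17.0 in cholangiocyte-derived cells. The ductal difference was -0.12 log2 units (95% interval -0.31 to 0.08, limma adjusted p = 0.35), and with library weights Mpp5 was called lower in hepatocyte-derived cells (-0.20, adjusted p = 0.00863). Against hepatocytes it was 0.83 higher in hepatocyte-derived cells (SE 0.1, adjusted p = 1.56e-06) and 0.95 higher in cholangiocyte-derived cells (SE 0.1, adjusted p = 2.99e-07). Neither call held after rescaling, where the cholangiocyte-derived values were 0.19 and 0.08.

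Inadl, the multi-PDZ scaffold PATJ that joins PALS1 to the tight junction (NM_172696, chr4:98062517-98386294, plus strand), formed 3 separate steps. Hepatocytes had 3.28, 5.10, 5.64 and 4.63 RPKM in libraries 118, 225, 248 and 611. Hepatocyte-derived cells had 16.9, 16.3, 19.6, 20.2 and 20.2 in libraries 219, 220, 225, 248 and 611, and cholangiocyte-derived cells had 30.1, 27.3, 30.5, 29.6 and 34.0 in libraries 118, 219, 220, 225 and 611. Every ductal library was above every hepatocyte library. The mean was 4-fold that of hepatocytes in hepatocyte-derived cells and 6.5-fold in cholangiocyte-derived cells, with log2 changes of 1.81 and 2.48 (SE 0.12 each, limma adjusted p = 4.11e-09 and 9.36e-11). Hepatocyte-derived cells were 0.67 log2 units lower than cholangiocyte-derived cells, a change of -0.67 (SE 0.11, adjusted p = 2.35e-04). The 4 Inadl transcript rows had the same order of groups.

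Among 5 further tested genes of the Crumbs complex, 3 were higher and 2 lower in hepatocyte-derived cells than in hepatocytes, against 66.2% and 14.8% of all symbols. In them 1 was higher and 2 lower than in cholangiocyte-derived cells, against 15.1% and 21% of all symbols. Crb2, a second Crumbs gene, averaged 0.0675 RPKM in hepatocytes, 0.53 in hepatocyte-derived and 2.13 in cholangiocyte-derived cells (-1.03 between the ductal groups, limma adjusted p = 7.07e-05). Lin7a, which encodes a small PDZ partner of PALS1, had the opposite order, at 3.63, 2.15 and 0.326 RPKM (1.22, adjusted p = 2.93e-04). Epb4.1l5, a FERM protein that binds and restrains Crumbs, averaged 36.6, 26.4 and 36.1 RPKM, lower in hepatocyte-derived cells than in either other group (-0.46, adjusted p = 2.95e-04, and -0.44, adjusted p = 8.27e-04). With median-ratio scaling the counts against hepatocytes were 2 higher and 2 lower for the hepatocyte-derived cells. Over both rescalings, as few as 4596 symbols of the whole table were higher there and as many as 4613 lower. The count of 2 lower was 1 without hepatocyte-derived library 225, 248 or 611, or without hepatocyte library 611. It was also 1 in 4 of 12 other alternatives. The tested genes left out Crb1 and Lin7b, which stayed under the filter.

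Pard3 encodes the PDZ scaffold that places the Par complex at tight junctions (NM_001013581, chr8:129823512-129957044, plus strand). Hepatocytes had 17.2, 22.2, 23.6 and 20.3 RPKM in libraries 118, 225, 248 and 611. Hepatocyte-derived cells had 29.6, 27.5, 32.6, 32.8 and 31.3 in libraries 219, 220, 225, 248 and 611, and cholangiocyte-derived cells had 27.6, 25.1, 26.4, 22.8 and 32.1 in libraries 118, 219, 220, 225 and 611. Hepatocyte-derived cells were highest on average, but the ductal ranges overlapped, and cholangiocyte-derived library 225 lay inside the hepatocyte range. The log2 changes were 0.55 for hepatocyte-derived cells (SE 0.11, limma adjusted p = 2.32e-04) and 0.35 for cholangiocyte-derived cells (SE 0.11, adjusted p = 0.00664) against hepatocytes, and 0.20 between the ductal groups (95% interval -0.02 to 0.41, adjusted p = 0.143), which library weights made a call (0.24, adjusted p = 0.00584). These directions rest on the scaling: by median ratios the values against hepatocytes were -0.23 (adjusted p = 0.0789) and -0.46 (adjusted p = 0.00176). By quantiles they were 0.07 and -0.19, neither called. Without the 3 libraries with raised markers of other cells, the cholangiocyte-derived change was 0.25 (adjusted p = 0.0651).

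The 4 Pard3 rows did not move alike. The longest, NM_033620, which spans chr8:129587956-130136186, ran at 0.628 to 0.723 of the representing row in hepatocytes, at 0.901 to 0.982 in hepatocyte-derived cells and at 0.947 to 1.05 in cholangiocyte-derived cells. The other 2 rows stayed at 0.666 to 0.775 of it in all 14 libraries. Measured by the longest row, a choice made after its values were seen, Pard3 was higher in hepatocyte-derived and cholangiocyte-derived cells than in hepatocytes by 1.01 (limma adjusted p = 1.24e-06) and 0.84 (adjusted p = 7.03e-06), and 0.17 apart between the ductal groups (adjusted p = 0.252). How reads shared by these transcripts were assigned is not given in the sources used here, so the share of each isoform is uncertain.

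Pard6b encodes a Par6 adaptor that ties atypical PKC to Cdc42 (NM_021409, chr2:167906504-167926703, plus strand), and it showed the widest span of the 10 members. Hepatocytes had 3.59, 5.97, 7.64 and 8.08 RPKM in libraries 118, 225, 248 and 611. Hepatocyte-derived cells had 22.8, 26.9, 17.99, 19.1 and 27.9 in libraries 219, 220, 225, 248 and 611, and cholangiocyte-derived cells had 61.9, 49.5, 62.8, 52.0 and 70.7 in libraries 118, 219, 220, 225 and 611. No group overlapped another. The mean rose from 6.32 ± 2.03 RPKM (n = 4) in hepatocytes to 22.9 ± 4.46 (n = 5) in hepatocyte-derived and 59.4 ± 8.62 (n = 5) in cholangiocyte-derived cells. The log2 changes were 1.74 and 3.08 (SE 0.19 each, limma adjusted p = 1.01e-06 and 1.54e-09), and the ductal groups differed by -1.34 (SE 0.18, adjusted p = 3.79e-05).

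The atypical protein kinases C are the catalytic part of the Par complex. Prkci, which encodes the iota form (NM_008857, chr3:30894693-30951662, plus strand), had 7.74, 10.3, 10.5 and 8.69 RPKM in hepatocyte libraries 118, 225, 248 and 611. It ranged from 21.0 to 25.3 in hepatocyte-derived and from 32.2 to 38.5 in cholangiocyte-derived cells. The 3 ranges were separate, with log2 changes of 1.24 and 1.84 against hepatocytes (SE 0.09 each, limma adjusted p = 1.60e-08 and 1.68e-10) and -0.60 between the ductal groups (SE 0.09, adjusted p = 7.79e-05). Prkcz, the zeta form (NM_008860, chr4:154634229-154735500, minus strand), was the lowest member in the ductal groups. Its ranges were 3.61 to 4.64 RPKM in hepatocytes, 4.95 to 6.97 in hepatocyte-derived and 7.91 to 8.94 in cholangiocyte-derived cells. Here the steps were small but separate. The log2 changes were 0.38 (SE 0.1, adjusted p = 0.00277) and 0.85 (SE 0.1, adjusted p = 1.35e-06) against hepatocytes and -0.47 (SE 0.09, adjusted p = 9.88e-04) between the ductal groups. Under median-ratio and quantile scaling, Prkcz in hepatocyte-derived cells was lower than in hepatocytes, at -0.29 (adjusted p = 0.0094) and -0.58 (adjusted p = 6.34e-05). In cholangiocyte-derived cells it was at 0.14, not called, and -0.22 (adjusted p = 0.0484).

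All 5 further tested Par genes were higher in each ductal group than in hepatocytes, against 66.2% and 67.1% of all symbols. Of the 5, 1 (Pard6g) was lower in hepatocyte-derived than in cholangiocyte-derived cells, against 21% of all symbols. Under median-ratio scaling, 2 of the 5 (Pard3b and Pard6g) were called higher in each ductal group, and 1 and 2 were lower in the hepatocyte-derived and cholangiocyte-derived cells. Of the whole table, as few as 4596 and 4891 symbols were higher over both rescalings, and as many as 4613 and 4821 lower. Pard6g, a paralog of Pard6b, averaged 0.205 RPKM in hepatocytes, 3.21 in hepatocyte-derived and 4.94 in cholangiocyte-derived cells (-0.51 between the ductal groups, limma adjusted p = 0.00526). Its hepatocyte mean was 0.0967 RPKM without library 118, and with the library number as a block none of the 5 was called lower between the ductal groups. Pard3b, a paralog of Pard3, averaged 0.862, 5.58 and 6.01 RPKM, and Pard6a averaged 3.12, 5.95 and 6.01. Both were about equal in the ductal groups, at -0.09 (95% interval -0.37 to 0.18) and -0.01 (-0.35 to 0.33). The small GTPase Cdc42, which activates the Par complex, averaged 146, 210 and 193 RPKM, and its changes against hepatocytes (0.55 and 0.42) turned to -0.25 and -0.41 under median-ratio scaling. Tiam1 stayed under the filter.

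Scribble module genes split. Llgl1 encodes an Lgl protein of the basolateral cortex (NM_001159405, chr11:60513192-60527690, plus strand). Hepatocytes had 2.67, 4.62, 5.83 and 4.86 RPKM in libraries 118, 225, 248 and 611. Hepatocyte-derived cells had 32.1, 26.8, 29.3, 29.7 and 26.2 in libraries 219, 220, 225, 248 and 611, and cholangiocyte-derived cells had 27.2, 30.5, 29.0, 27.0 and 27.3 in libraries 118, 219, 220, 225 and 611. The ductal groups covered the same range, and each was about 6 times as high as hepatocytes by ratio of means (6.41 and 6.27). The log2 changes against hepatocytes were 2.47 and 2.44 (SE 0.14 each, limma adjusted p = 9.58e-10 and 5.56e-10). Between the ductal groups the difference was 0.03 (95% interval -0.25 to 0.31, adjusted p = 0.894).

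Llgl2, the Lgl paralog enriched in simple epithelia (NM_145438, chr11:115685372-115717094, plus strand), followed the stepped order. Hepatocytes had 7.48, 11.7, 13.2 and 12.9 RPKM in libraries 118, 225, 248 and 611. Hepatocyte-derived cells had 36.4, 41.9, 32.6, 31.7 and 29.1 in libraries 219, 220, 225, 248 and 611, and cholangiocyte-derived cells had 75.3, 67.0, 84.4, 60.2 and 91.2 in libraries 118, 219, 220, 225 and 611. The groups were apart, and the cholangiocyte-derived libraries spread most. Llgl2 was the most abundant member in both ductal groups per length, at 34.3 ± 4.99 and 75.6 ± 12.6 RPKM (n = 5 each). The log2 changes were 1.54 and 2.65 against hepatocytes (SE 0.16 each, limma adjusted p = 6.23e-07 and 1.29e-09) and -1.11 between the ductal groups (SE 0.15, adjusted p = 4.65e-05).

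Scrib, the LRR and PDZ scaffold of the lateral membrane (NM_134089, chr15:75877616-75900160, minus strand), ranged from 4.71 to 9.56 RPKM in hepatocytes. Hepatocyte-derived cells had 17.0 to 21.8 and cholangiocyte-derived cells 23.7 to 26.2, so the 3 ranges were separate. Against hepatocytes the log2 changes were 1.21 and 1.57 (SE 0.15 each, limma adjusted p = 2.50e-06 and 1.20e-07). The ductal difference of -0.36 (95% interval -0.66 to -0.06) missed the threshold (adjusted p = 0.0556). With the library number as a block, fitted on the 12 libraries whose columns match a single title and so without both libraries 220, it was -0.49 (adjusted p = 0.0433). Without hepatocyte library 118, which enters only through the shared estimate of the spread, it was -0.36 (adjusted p = 3.83e-04), and without hepatocyte library 248 -0.36 (adjusted p = 0.0492). Scrib was also called lower with library weights (-0.32, adjusted p = 6.69e-04), a pseudocount of 5 (-0.31, adjusted p = 0.0194), quantile scaling (-0.35, adjusted p = 0.0223), a fit on the ductal groups alone (-0.36, adjusted p = 8.77e-04) and without the 3 libraries with raised markers of other cells (-0.34, adjusted p = 0.00583). It was not called in the remaining alternatives, median-ratio scaling among them. On the same 12 libraries without the block it was -0.34 (adjusted p = 0.16). With 1 library left out the adjusted p reached 0.119, so the call depends on the setting.

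The further Scribble genes were all 8 higher in each ductal group than in hepatocytes, with 6 and 5 of the 8 still called after rescaling by median ratios in hepatocyte-derived and cholangiocyte-derived cells. Before rescaling, 66.2% and 67.1% of all symbols, 8363 and 8475, were higher in these groups than in hepatocytes. After rescaling by median ratios or quantiles as few as 4596 and 4891 were. Between the ductal groups 1 of the 8 was higher and 3 lower in hepatocyte-derived cells, against 15.1% and 21% of all symbols. Lrrc1, a Scribble paralog, averaged 0.52 RPKM in hepatocytes, 10.9 in hepatocyte-derived and 21.9 in cholangiocyte-derived cells (-0.95 between the ductal groups, limma adjusted p = 1.03e-06). Dlg4, one of the Discs large scaffolds, averaged 0.238, 2.35 and 7.47 RPKM (-1.35, adjusted p = 7.94e-07), while Dlg1, the family member best known from epithelia, averaged 22.4, 34.8 and 36.5 (-0.07, 95% interval -0.30 to 0.16). The 2 genes whose products carry Scribble signals to Rac went apart. Git1 was lower in hepatocyte-derived than in cholangiocyte-derived cells (32.2 and 42.8 RPKM, -0.40, adjusted p = 8.58e-04), and Arhgef7, which encodes its partner beta-PIX, was higher (30.3 and 20.2 RPKM, 0.56, adjusted p = 5.21e-05).

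Ratios of paralogs within a library do not depend on scaling between libraries. The Llgl2 to Llgl1 ratio of RPKM was 2.24 to 2.74 in hepatocytes (median 2.56), 2.20 to 3.33 in cholangiocyte-derived cells (median 2.77) and 1.06 to 1.56 in hepatocyte-derived cells (median 1.11). Hepatocyte-derived cells thus had nearly equal levels of the paralogs and lay below every library of both other groups. On the log2 scale the ratio was lower by -1.09 against hepatocytes (two-sided exact permutation p = 0.0159, adjusted over 9 ratio tests 0.0238) and by -1.16 against cholangiocyte-derived cells (exact permutation p = 0.00794, adjusted 0.0238). These are the smallest p-values that 5 against 4 and 5 against 5 libraries can give. The ratio tests took libraries as independent, although the groups share library numbers, and no paired test of a ratio was run. Cholangiocyte-derived cells and hepatocytes differed by 0.07 (exact permutation p = 0.635, adjusted 0.635).

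The Prkci to Prkcz ratio separated both ductal groups from hepatocytes. It was 1.68 to 2.74 in hepatocytes, 3.43 to 4.90 in hepatocyte-derived and up to 4.77 in cholangiocyte-derived cells (median 4.18). The log2 differences from hepatocytes were 0.87 and 0.95 (exact permutation p = 0.0159 each, adjusted 0.0238), and the ductal groups differed by -0.08 (exact permutation p = 0.484, adjusted 0.607). The ratio of Pard6b to the sum of Pard6a and Pard6g was 3.95 to 6.63 in cholangiocyte-derived cells, 2.09 to 3.41 in hepatocyte-derived cells and 0.690 to 3.17 in hepatocytes. It was lower in hepatocyte-derived than in cholangiocyte-derived cells by -1.12 (exact permutation p = 0.00794, adjusted 0.0238) and higher in cholangiocyte-derived cells than in hepatocytes by 1.51 (exact permutation p = 0.0159, adjusted 0.0238). Hepatocyte-derived cells and hepatocytes overlapped, with a difference of 0.39 (exact permutation p = 0.540, adjusted 0.607), which was -0.09 without hepatocyte library 118, the library at 0.690.

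**Figure D3:**
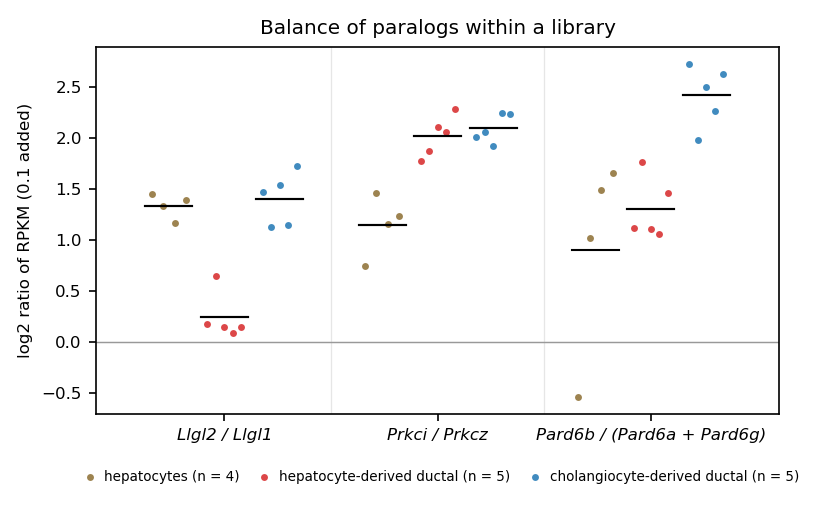
Log2 ratio of RPKM between paralogs in each library (0.1 added to each level), with a black line at each group mean and a grey line at equal levels. For Llgl2 to Llgl1 the 5 hepatocyte-derived libraries (red) lie below all others, near equal levels, and for Prkci to Prkcz the 4 hepatocyte libraries (brown) lie below all others.

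Hepatocyte library 118 was the lowest of its group for 8 of the 10 members and the highest for Crb3. Its part in the fold changes can be read from the fits without it. Over all fits that left out 1 library, the change against hepatocytes ranged from 2.29 to 2.59 for Llgl1 and from 1.53 to 1.86 for Pard6b in hepatocyte-derived cells. For the ductal groups, the difference ranged from -1.42 to -1.26 for Pard6b and from -1.06 to -0.99 for Crb3. Every call of a member against hepatocytes held in those fits.

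Genes that act beside the complexes were counted by list. The shares over all symbols were 66.2% higher and 14.8% lower in hepatocyte-derived cells than in hepatocytes. Against cholangiocyte-derived cells they were 15.1% and 21%. These shares are before rescaling. Over both rescalings as few as 4596 symbols were higher than in hepatocytes and as many as 4613 lower. Of 21 tested junction genes that anchor the complexes, 18 were higher and none lower in hepatocyte-derived cells than in hepatocytes (17 and 2 under median-ratio scaling). Between the ductal groups 3 were higher and 8 lower in hepatocyte-derived cells. Marveld3, a tight junction protein, averaged 0.345 RPKM in hepatocytes, 12.7 in hepatocyte-derived and 21.8 in cholangiocyte-derived cells. Amotl1, an angiomotin that binds PATJ and PALS1, averaged 0.36, 2.87 and 26.7 RPKM (-2.88 between the ductal groups, limma adjusted p = 1.39e-07), and its hepatocyte mean was 0.06 without library 118. The nectin gene Pvrl3 went the other way, at 29.3, 28.9 and 13.6 RPKM (1.03, adjusted p = 1.61e-05).

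Of 14 genes of the apical surface and of sorting to it, 12 were higher and none lower in hepatocyte-derived cells than in hepatocytes. Over all symbols the shares were 66.2% and 14.8%. Under median-ratio scaling the counts of the list were 8 and 4. The whole table had as few as 4596 symbols higher and as many as 4613 lower over both rescalings. Between the ductal groups 2 were higher and 6 lower in hepatocyte-derived cells, against 15.1% and 21% of all symbols. Rab25, a GTPase of apical recycling, had 68.1 to 90.7 RPKM in cholangiocyte-derived cells, 0.44 to 2.75 in hepatocyte-derived cells and 0 to 1.71 in hepatocytes. The hepatocyte-derived range overlapped that of hepatocytes through library 118 alone, since the other 3 hepatocyte libraries were at 0 to 0.04. It lay under that of the cholangiocyte-derived cells (-5.08, SE 0.28, limma adjusted p = 5.30e-09). Ap1m2, the epithelial subunit of the AP-1 sorting adaptor, averaged 1.2 RPKM in hepatocyte-derived and 52.1 in cholangiocyte-derived cells (-4.66, SE 0.2, adjusted p = 4.58e-10). Its ubiquitous paralog Ap1m1 averaged 55.6 and 34.8. The apical linker Ezr averaged 7.12 RPKM in hepatocytes, 70.1 in hepatocyte-derived and 282 in cholangiocyte-derived cells (-2.01 between the ductal groups, SE 0.16, adjusted p = 2.50e-07), and its relative Rdx averaged 86, 107 and 62.6 (0.77, adjusted p = 1.37e-05).

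**Figure D4:**
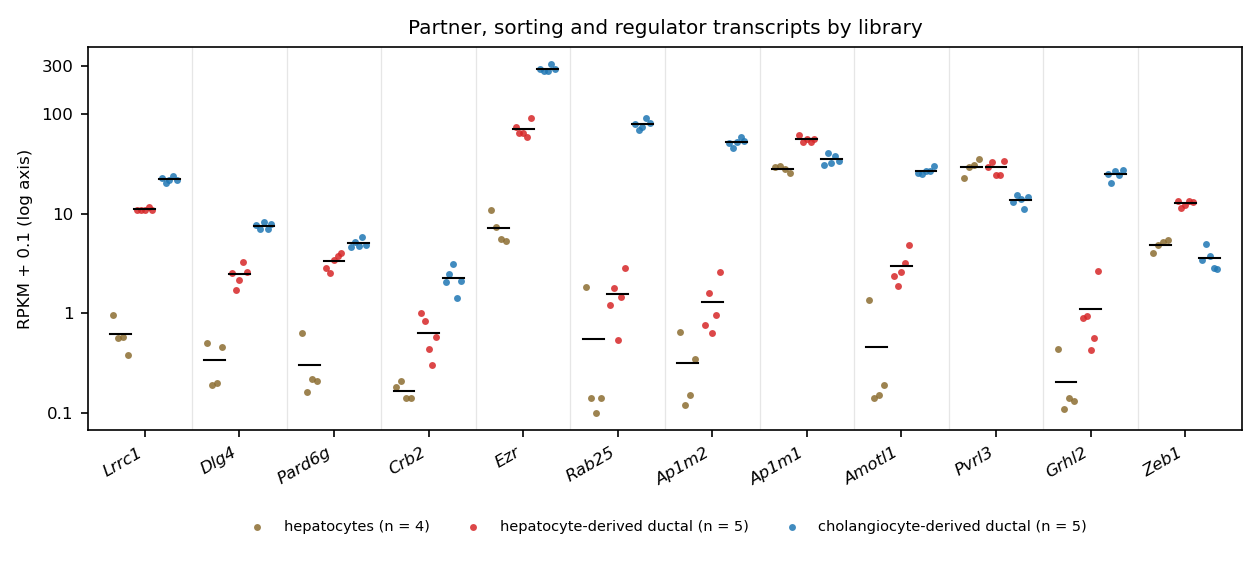
RPKM + 0.1 (log axis) of partner, sorting and regulator genes in each library, with a black line at each group mean. Rab25, Ap1m2 and Grhl2 are at most 2.75 RPKM in hepatocyte-derived cells (red) and at least 20.1 in every cholangiocyte-derived library (blue), while Zeb1 is highest in the red group.

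Of 4 tested transcription factors known to act on polarity genes, 2 were higher (Zeb1 and Snai2) and 1 lower (Grhl2) in hepatocyte-derived than in cholangiocyte-derived cells. Against hepatocytes 3 were higher and 1 lower in hepatocyte-derived cells, and 2 were higher and 2 lower in cholangiocyte-derived cells. Median-ratio scaling left these counts as they were. Under quantile scaling 2 were higher and 1 lower in hepatocyte-derived cells, and 1 was higher and 2 lower in cholangiocyte-derived cells. Between the ductal groups, quantile scaling gave 3 higher and 1 lower in hepatocyte-derived cells, with Zeb2 added. Zeb1, an E-box repressor whose binding was not measured here, had 11.3 to 13.3 RPKM in hepatocyte-derived cells, 2.66 to 4.87 in cholangiocyte-derived cells and 3.95 to 5.28 in hepatocytes. It was higher in hepatocyte-derived cells than in cholangiocyte-derived cells by 1.63 (SE 0.12, limma adjusted p = 1.13e-07) and than in hepatocytes by 1.23 (SE 0.13, adjusted p = 5.03e-07). Grhl2, an activator of epithelial junction and polarity genes, had 20.1 to 27.4 RPKM in cholangiocyte-derived cells, 0.33 to 2.58 in hepatocyte-derived cells and 0.01 to 0.34 in hepatocytes (-3.77 between the ductal groups, SE 0.21, adjusted p = 7.50e-09). The E-box repressor Snai2 averaged 3.2 RPKM in hepatocytes, 1.52 in hepatocyte-derived and 0.502 in cholangiocyte-derived cells. It was higher in hepatocyte-derived than in cholangiocyte-derived cells (0.75, adjusted p = 0.0164) and lower than in hepatocytes (-0.65, adjusted p = 0.021), though no regulator was called lower there without hepatocyte library 225 or 248. Zeb2, a paralog of Zeb1, averaged 0.59 RPKM in hepatocytes (0.133 without library 118), 4.41 in hepatocyte-derived and 2.77 in cholangiocyte-derived cells. Its ductal difference of 0.54 did not pass the limma test on the deposited scale (adjusted p = 0.14), but Zeb2 was called higher under quantile scaling. Snai1 and Twist1 stayed under the filter. Of 9 tested kinase genes of the Par-1 and Par-4 group, 7 were higher and 2 lower in each ductal group than in hepatocytes (4 and 3 under median-ratio scaling). Over all symbols before rescaling, 66.2% and 67.1% were higher and 14.8% and 17.4% lower in hepatocyte-derived and cholangiocyte-derived cells. Over both rescalings, as few as 4596 and 4891 symbols were higher and as many as 4613 and 4821 lower. Between the ductal groups 2 of the 9 were higher and 3 lower in hepatocyte-derived cells, against 15.1% and 21% of all symbols. The count of 2 higher was 1 with the library number as a block, and also without hepatocyte-derived library 219 or 220 or cholangiocyte-derived library 118, 220, 225 or 611. Mark2, a Par-1 kinase of the basolateral side, averaged 9.62, 28 and 37.1 RPKM in hepatocytes, hepatocyte-derived and cholangiocyte-derived cells (-0.39 between the ductal groups, adjusted p = 0.00199).

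Genes whose levels followed each member most closely over the 14 libraries were ranked by Pearson correlation of log2(RPKM + 1), as a description, since libraries of a group share their source. The correlations run over all 3 groups on the deposited scale, so differences shared between groups raise them, and no link between genes was tested. Llgl2 was among the 3 genes nearest to Pard6b (r = 0.989), and Inadl and Prkci were correlated at 0.989. The lowest correlation between members was that of Crb3 and Pard3 (0.316). Magi1, which encodes a junctional scaffold, was among the 3 nearest to Inadl (0.996), with Fzd5 and Tbc1d22b. The nearest genes were Adap1 for Crb3 (0.989), Sin3a for Mpp5 (0.992), Itpr1 for Pard3 (0.960), Tmem109 for Prkci (0.996), Elmo3 for Prkcz (0.978), Rin3 for Llgl1 (0.998), Zfp36l2 for Llgl2 (0.994) and Ube2o for Scrib (0.993).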

How the data were processed

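RNA of sorted liver cells was sequenced in 14 libraries with a TruSeq kit that does not mark strand, so antisense reads cannot be told apart. The authors deposited RPKM per transcript row (26005 rows, build mm9), for which the submitters' processing notes name CASAVA and Bowtie 0.12.7. No source used here gives the counting program or how shared reads were treated. Of the columns, 12 match 1 title. The other 2, numbered 220 where the remaining titles have 120, were matched to their group only. The design text names 3 hepatocyte samples, and the table holds 4. Each symbol is represented by its row with the highest mean.

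The main test was limma (3.58.1, R 4.3.3) with a mean-variance trend on log2(RPKM + 1), over all 14 libraries and 12638 symbols that reached 1 RPKM in 4 libraries or more, two-sided, with Benjamini-Hochberg adjustment over all symbols. The fold changes understate changes of low genes. Ratios of paralogs, with 0.1 added to each level, were compared by exact permutation tests in Python 3.11.15 with scipy 1.17.1, adjusted over 9 tests. Libraries were not paired by number in these tests. Depth was estimated from value steps of transcripts of 150 to 1000 nt with GENCODE vM21 lengths. In the library with the fewest reads behind it, a member had an estimated 219 (Prkcz) to 1235 (Pard3) reads, a counting error of 6.76% to 2.85%. Positions in the table count from 0 and are given from 1.

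Libraries of the same number tended to deviate together. For the 3 pairs of matched columns, deviations from the group means correlated at 0.212 to 0.797 between the ductal groups and at 0.133 to 0.512 between cholangiocyte-derived cells and hepatocytes. Pairs of different numbers ranged from -0.564 to 0.464 and from -0.467 to 0.458, so the ranges overlap. The block value is given where it changed a call. The fit was run on simulated data in which few genes changed, in both directions, and libraries were independent. It called 56.9% to 60.9% of 1.5-fold changes and 0.135% to 0.288% of unchanged genes. Scaling and pairing were not simulated.

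The members, gene lists and tests were chosen with earlier results of these data known. Genes named are all members, their paralogs and partners in the 3 complexes, up to 4 genes per other list and comparison with the smallest adjusted p, and the 3 genes most correlated with each member. A gene named beyond these (Krt19, Spp1) is a marker. Alternatives were other pseudocounts, no filter, summed rows, median-ratio and quantile scaling, library weights, the replicate block, fits on 2 groups, and libraries left out. The filter, row sums and smaller pseudocount changed no call of a member.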

Additional observations from a re-analysis of the deposited data

Results flagged for a closer look

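Of 39 sets of values looked at (each member and ratio in each group of 4 or 5 libraries), 1 held a library far from the rest, and chance flags about 1 in 20. The Llgl2 to Llgl1 ratio of RPKM was 1.56 in hepatocyte-derived library 220 and 1.06 to 1.13 in the other 4 hepatocyte-derived libraries. It was still below the lowest ratio of hepatocytes (2.24) and of cholangiocyte-derived cells (2.20). Library 220 had the highest Llgl2 level of its group, 41.9 RPKM.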

How the results depend on the processing

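Against hepatocytes, scaling changed the members' calls. Under median-ratio scaling 6 members were called higher and 1 lower in hepatocyte-derived cells than in hepatocytes, and the same counts, 6 and 1, came from quantile scaling (10 and 0 as reported). In cholangiocyte-derived cells 1 member was lower under each (0 as reported). Over all symbols, those higher in hepatocyte-derived cells fell from 8363 to as few as 4596 over both rescalings. Those lower rose from 1873 to as many as 4613. In cholangiocyte-derived cells these counts went from 8475 to as few as 4891 and from 2195 to as many as 4821. Under median ratios Crb3 turned to -0.14, Pard3 to -0.23 and Prkcz to -0.29 in hepatocyte-derived cells and Pard3 to -0.46 in cholangiocyte-derived cells. Under quantiles Prkcz turned to -0.58 in hepatocyte-derived cells, and Pard3 to -0.19 and Prkcz to -0.22 in cholangiocyte-derived cells. Which scaling is nearer to the cells was not tested. Between the ductal groups library weights made 3 further calls: 1 member, Pard3, was higher in hepatocyte-derived cells (0.24), and Mpp5 (-0.20) and Scrib (-0.32) were lower.

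With the library number as a block, the ductal difference of Llgl1 was -0.07, and beside Scrib no call of a member changed. Between hepatocyte-derived cells and hepatocytes the same-number correlations were 0.021 to 0.193, with 2 of 3 pairs over 0.1, so a pairing of these groups was not established. Over all groups, 14 of 18 pairings correlated best with their own number. Leaving out 1 library, Llgl1 between the ductal groups ranged from -0.01 (without hepatocyte-derived 219) to 0.06.

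For Prkci to Prkcz, leaving out 1 library gave 0.74 to 0.97 for hepatocyte-derived and 0.81 to 1.05 for cholangiocyte-derived cells against hepatocytes. For Llgl2 to Llgl1 it gave -1.19 to -1.05, and -0.01 (without cholangiocyte-derived 611) to 0.14. For Pard6b to its paralogs it gave -0.09 (without hepatocyte 118) to 0.65, and 1.03 to 1.77. Without any 1 hepatocyte library the 4 ratio calls against hepatocytes had an adjusted exact permutation p of 0.0536 and missed the threshold, with the fewer arrangements that 5 against 3 libraries allow. Without the 3 libraries with raised markers of other cells (hepatocyte 118, cholangiocyte-derived 118 and 220), Prkci to Prkcz was 0.74 and 0.90, Llgl2 to Llgl1 -1.05 against hepatocytes and -1.10 between the ductal groups, and Pard6b to its paralogs -0.09, 0.90 and -0.99, none called, with fewer libraries to permute. In that set 10 and 9 members were higher in the hepatocyte-derived and cholangiocyte-derived cells than in hepatocytes, and 7 were lower in hepatocyte-derived than in cholangiocyte-derived cells, Scrib added. In the same 3 comparisons the median log2 change was 0.71, 0.76 and -0.04 over all symbols and 1.08, 1.76 and -0.56 over the members. Of all calls, 82.3%, 80.4% and 42.1% were higher.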
